A study of Macaca mulatta with 449 samples.

Results

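The hippocampal gyrus (HG) was compared with the fusiform gyrus (FG) and the lingual gyrus (LG), its neighbours on the ventral surface of the temporal and occipital lobes, in the same 8 rhesus macaques. The samples were picked by the region number in the sample labels and not by a measured value, and were 24 of the 449 samples in the series. The comparison itself was chosen with earlier results of these data known. There were 8 RNA-seq libraries of HG, 8 of FG and 8 of LG, with 1 of each per animal. The labels name the HG sample as hippocampal or parahippocampal gyrus, and which of these it held is not given. The animals, named here by their label numbers, were the males Rhesus 2 and 3 (both 10 years old), 7 (4 years) and 8 (3.8 years) and the females Rhesus 4 (3.2 years), 6 (10 years), 10 (5 years) and 11 (9.8 years). The labels give no genotype or agent for any of them, and all 24 libraries were made alike. A small piece of each gyrus was cut out by 1 anatomist, ribosomal RNA was removed, and strand-specific libraries of the remaining RNA were sequenced. For the main comparison the counts of FG and LG were summed within each animal, and HG was set against that sum with the animal as a block.

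The fusiform and lingual gyri belong to the visual areas of the ventral stream, which process form and colour. The parahippocampal region receives input from association areas and passes it to the hippocampus through the entorhinal cortex. Early sensory areas of primates are known for heavy myelination, large fast-conducting axons rich in neurofilament and many fast-spiking interneurons with parvalbumin, whereas limbic and higher association areas are less myelinated and keep more of the proteins tied to axon growth and plasticity. In bulk tissue such differences can come from fewer cells of a type or from less RNA per cell, and these cannot be told apart here.

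Total counts ran from 8939801 to 18807900 over the 24 libraries (median 10582706), and the summed FG and LG columns held 19774185 to 30271927. The depth differs between the sides of the comparison by construction, and the fit takes it into account through library sizes. In all, 3 libraries stood apart, with a median correlation with the same sub-region of the other animals under 0.97: FG of Rhesus 3 (0.952), FG of Rhesus 4 (0.950) and HG of Rhesus 8 (0.965). Counts of calls and distances are also given without these 3 animals. FG and LG of an animal were not 1 library deposited again, since their counts differed by 4.45 to 17.3 times the sampling noise (chi-square per gene). Levels are given as counts scaled to a common library size (CPM, with TMM factors over all libraries of the count table). They are not divided by gene length, and are compared between libraries and not between genes.

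HG differed from FG and LG in 5314 of 15237 genes tested at FDR < 0.05 (edgeR quasi-likelihood test, Benjamini-Hochberg adjusted), or 34.9%. Of these, 2825 genes (18.5% of those tested) were higher in HG and 2489 (16.3%) were lower. Most differences were small: 439 genes (2.88%) passed and differed by more than 2-fold, 275 of them higher (1.8%) and 164 lower (1.08%). The same direction was found in all 8 animals for 224 of the 275 and for 128 of the 164. In 177 of all tested genes every HG library lay above all 16 FG and LG libraries (1.16% of those tested), and in 88 every HG library lay below them (0.578%). The balance of higher and lower calls depended on the scaling, since without TMM factors 2421 genes were higher and 3231 lower, and 0 of the 5314 genes changed sign. Without the animals of the 3 libraries that stood apart, 5460 genes were called, 2880 of them higher in HG.

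**Figure D1:**
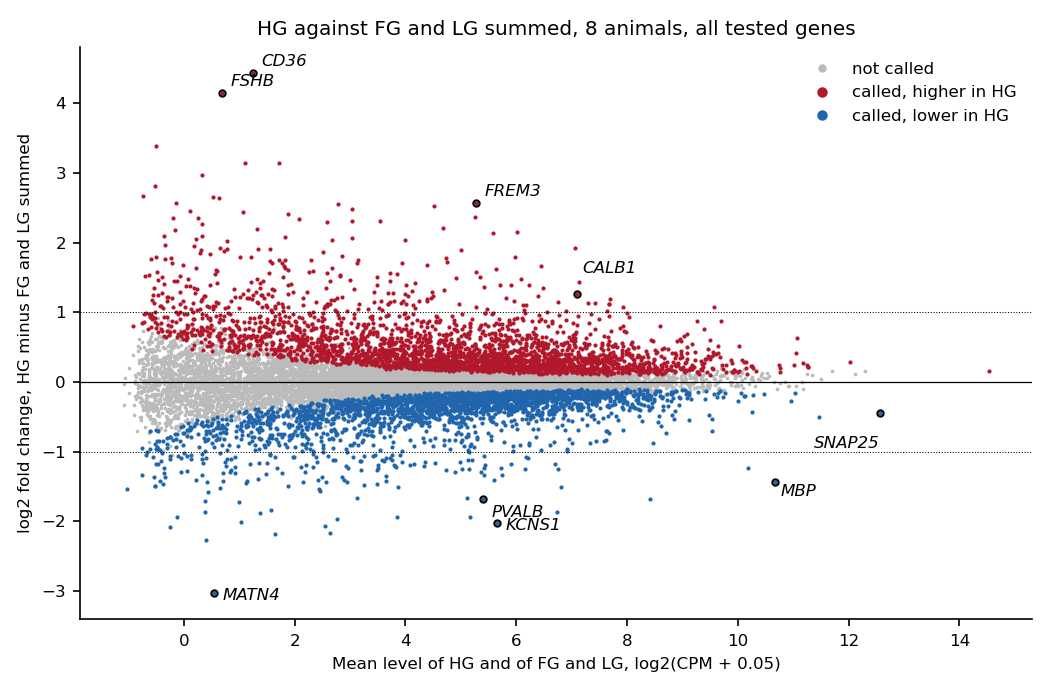
Each point is 1 of the 15237 tested genes, with its mean level on the x axis (log2 of CPM plus 0.05) and the log2 fold change of HG against FG and LG summed on the y axis. Red and blue points passed FDR < 0.05, the dotted lines mark 2-fold, and CD36 and FSHB lie at the top while MATN4 lies at the bottom.

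No gene passed the test between FG and LG. In the fit of all 24 libraries with the animal as a block, 0 of 14728 genes differed between FG and LG by the quasi-likelihood test, with 276 genes (1.87%) at an unadjusted p under 0.05, and DESeq2 also called 0 with 246 genes at an unadjusted p under 0.05. Without the animals of the 3 libraries that stood apart, the quasi-likelihood test called 0 of 14751 genes, with 536 at an unadjusted p under 0.05. On simulated counts of the same design and size, the test found 86 of 100 genes changed 2-fold between FG and LG and 100 of 100 changed 4-fold. Smaller changes were not simulated. Simulated animals shared the same mean for each gene and no simulated library was made to stand apart, so recovery in the real libraries may be lower. Differences between FG and LG are therefore not excluded, 2-fold ones included. In the 24-library fit HG differed from FG in 4167 genes (28.3%), 2113 of them higher (14.3%) and 2054 lower (13.9%). It differed from LG in 4531 genes (30.8%), 2333 higher (15.8%) and 2198 lower (14.9%). Over 2-fold, the counts were 372 against FG (2.53%, 1.55% higher and 0.971% lower) and 422 against LG (2.87%, 1.85% higher and 1.01% lower). These tests share the HG libraries. By more than 2-fold against FG and also against LG, 204 genes were higher in HG and 112 were lower, and 176 and 102 of them had the same direction in all 8 animals.

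The distance between sub-regions of an animal, taken as the root mean square difference of log2(CPM + 1) over the 14728 genes, was shortest between FG and LG. FG and LG of an animal were 0.241 to 0.415 apart (mean 0.313 ± 0.0578 SD, n = 8), HG and LG 0.331 to 0.458 (0.398 ± 0.0404) and HG and FG 0.365 to 0.527 (0.442 ± 0.0648). FG to LG was shorter than the mean of the distances from HG in 8 of 8 animals, by 0.107 on average (two-sided p = 0.00781, exact permutation of the signs, and no smaller p is possible with 8 animals). Rhesus 8 was the exception in single pairs, with HG closer to LG (0.331) than FG was (0.415), and its HG library is among the 3 that stood apart. With HG to FG at 0.5005 in this animal, its FG to LG distance was almost equal to the mean of its distances from HG. The count of 8 of 8 thus includes a near tie. Whether HG lay nearer to LG or to FG did not show: the difference was 0.0436 ± 0.0717 (SD, n = 8), positive in 5 of 8 animals (exact p = 0.172). The difference was -0.00437 ± 0.0230 (SD, n = 5) without Rhesus 3, 4 and 8, positive in 2 of 5 animals (exact p = 0.688). In the same 5 animals FG to LG was shorter than the mean of the distances from HG in 5 of 5, by 0.12 on average (exact p = 0.0625, the smallest possible).

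**Figure D2:**
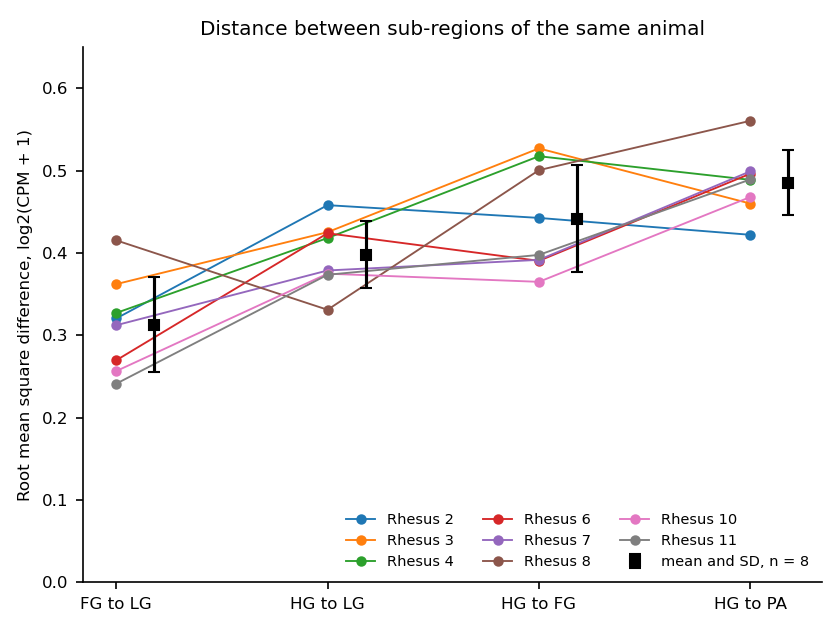
Each line joins the distances of 1 animal (y axis, root mean square difference of log2(CPM + 1) over 14728 genes), and black squares with bars are the mean and SD of 8 animals. FG to LG is the shortest distance in every animal but Rhesus 8, and HG to PA exceeds the mean of the other HG distances in 6 of 8.

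The label of HG was checked against markers of the hippocampal formation and of the entorhinal and perirhinal cortex (PA). Of 9 tested hippocampal markers 5 were higher in HG than in FG and LG, 0 were lower and 4 did not pass (18.5% and 16.3% of all genes were higher and lower), with a median log2FC of 0.54 against -0.00202 over all genes. FIBCD1, which marks CA1 pyramidal neurons, gave 0.807 to 4.52 CPM (median 1.51) in HG. FG had 0.0671 to 0.792 CPM (median 0.359) and LG had 0 to 0.689 CPM (median 0.38). All HG libraries lay above all FG and LG libraries (log2FC 2.26 ± 0.37 SE, FDR = 2.79e-04), but the mean was 31.2 CPM in CA1, 38.1 CPM in CA3 and, in PA, 9.7 CPM. PROX1, the factor of dentate granule cells, gave 1.78 to 7.04 CPM (median 4.95) in HG. FG had 0.338 to 5 CPM (median 3.43) and LG had 0.689 to 5.37 CPM (median 3.11). The groups overlapped (log2FC 0.7 ± 0.18 SE, FDR = 0.00767), and the mean was 38 CPM in the dentate gyrus but also 36.9 CPM in the corpus callosum and 21.3 CPM in the thalamus. WFS1, which the list holds as a gene of CA1 and entorhinal neurons, was 131 to 311 CPM (median 242) in HG and CALB1, the calcium buffer calbindin, 125 to 266 CPM (median 192). Both were higher than in FG and LG in 8 of 8 animals (1.13 and 1.27 on the log2 scale). WFS1 averaged 80.0 CPM in CA1, 87.4 CPM in CA3 and 49.6 CPM in the dentate gyrus, all under its means of 107 CPM in FG and 108 CPM in LG, while PA had 344 CPM. CALB1 averaged 306 CPM in CA1 and 182 CPM in PA. C1QL2, a secreted synaptic protein of granule cells, was called as well (log2FC 0.54 ± 0.10 SE, FDR = 6.28e-04). ZBTB20 (-0.26, FDR = 0.546), NR3C2 (-0.31, FDR = 0.114), LEF1 (-0.19, FDR = 0.11) and FN1 (-0.13, FDR = 0.37) did not pass. FIBCD1 in HG was nearer to its level in FG and LG than to that in CA1. For all 5 called markers the mean in the insula was above that in HG. The means in the insula and HG were 2.12 and 2.0 CPM for FIBCD1 and 6.22 and 4.65 CPM for PROX1. They were 253 and 237 CPM for WFS1, 216 and 192 CPM for CALB1 and 43.2 and 39.2 CPM for C1QL2. The higher levels were thus not particular to HG among cortical sub-regions.

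RORB, a factor of the granular layer of the isocortex, was 9.96 to 51.3 CPM (median 28.6) in HG, against a mean of 3.5 CPM in PA and 2.53 CPM in CA1. HG was farther from PA (0.485 ± 0.0395, SD, n = 8) than the mean of its distances to FG and LG in 6 of 8 animals, by 0.0657 (exact p = 0.0469), a call that was lost without any 1 of Rhesus 4, 6, 7, 8, 10 and 11 (p of 0.0625 to 0.0938) and without the 3 animals (0.0753, positive in 4 of 5, exact p = 0.125). Over all sub-regions, those with the shortest mean distance from HG were the inferior frontal gyrus (IFG, 0.311 ± 0.0313), the superior temporal gyrus (STG, 0.326 ± 0.0440) and the insula (INS, 0.327 ± 0.0361), whose order is within the spread. LG came at rank 17, FG at rank 23, PA at rank 27 and CA1 at rank 33. Without Rhesus 3, 4 and 8 the shortest were the anterior superior frontal gyrus (0.286), the medial orbital gyrus (0.299) and the insula (0.306), with FG at rank 17, LG at rank 19 and PA at rank 28, so that the order of FG and LG turned when those 3 animals were left out. With or without them FG had LG at rank 1, and LG had the annectant gyri (ATG) at rank 1 and FG at rank 2.

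Genes are named here from those called in 1 direction in 8 of 8 animals whose mean in HG or in the reference reached 1 CPM. The largest differences upward were at low levels. CD36, a receptor for fatty acids and lipoproteins, gave 1.31 to 7.49 CPM (median 4.5) in HG. FG had 0 to 0.539 CPM (median 0.123) and LG had 0 to 0.662 CPM (median 0.188). The lowest HG library was above the highest of FG and LG (log2FC 4.43 ± 0.31 SE, FDR = 1.61e-07, with 442 counts in HG, 16 in FG and 21 in LG). FSHB, the beta subunit of follicle-stimulating hormone, gave 2.01 to 4.59 CPM (median 2.61) in HG. FG had 0 to 0.385 CPM (median 0) and LG had 0 to 0.537 CPM (median 0.174), again without overlap (log2FC 4.15 ± 0.35 SE, FDR = 7.05e-07). Across the 51 sub-regions FSHB had its highest mean in the pituitary (258 CPM), followed by the amygdala (AMY, 44.9 CPM), the temporal pole (TPG, 21.4 CPM) and INS, and CD36 was highest in PA (25.3 CPM) and AMY (25.2 CPM). SERPINB13, a protease inhibitor of the serpin family, ran from 1.78 to 7.88 CPM in HG and reached 0.842 CPM in FG and LG (log2FC 3.14 ± 0.33 SE, FDR = 5.44e-06). Its highest mean was in CA1 (15.8 CPM).

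Among genes at higher levels, FREM3, an extracellular matrix protein of superficial pyramidal neurons, gave 38.9 to 79.8 CPM (median 64) in HG. FG had 5.52 to 25.1 CPM (median 13.2) and LG had 3.85 to 31.6 CPM (median 8.66), and the groups did not overlap (log2FC 2.57 ± 0.25 SE, FDR = 2.85e-06). RASAL1, which turns off Ras, gave 26.6 to 54.3 CPM (median 36.9) in HG. FG had 3.04 to 14.8 CPM (median 7.76) and LG had 2.94 to 14.3 CPM (median 4.95), also without overlap (log2FC 2.53 ± 0.15 SE, FDR = 3.27e-08). PRKCD, protein kinase C delta, was 11.2 to 16 CPM (median 14) in HG and at most 5.2 CPM in FG and LG (log2FC 2.48 ± 0.15 SE, FDR = 4.31e-08). C4H6orf141 (log2FC = 2.56), RDM1 (2.81) and CENPVL3 (2.45) were separate too, but at means of 11.6, 1.14 and 1.75 CPM in HG. CENPVL3 belongs to a family of near-identical copies whose reads may be shared. SPINK5, a protease inhibitor (2.65), and RHAG, a gas and ammonium channel (2.64), were higher in 8 of 8 animals with overlapping groups. CLIC6, of the chloride intracellular channel family, was 2.2 to 21.5 CPM (median 3.28) in HG and 0 to 0.576 CPM (median 0.337) in LG (log2FC 3.15 ± 0.26 SE, FDR = 5.80e-07). Rhesus 7 had the highest CLIC6 in HG (21.5 CPM) and in FG (3.96 CPM). CLIC6 was the only tested member of a list of choroid plexus markers, whose 3 matched members summed to 22.9 CPM in HG of Rhesus 7 and to 2.62 to 7.63 CPM in the other 7 HG libraries. Their part in the result was not tested.

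**Figure D3:**
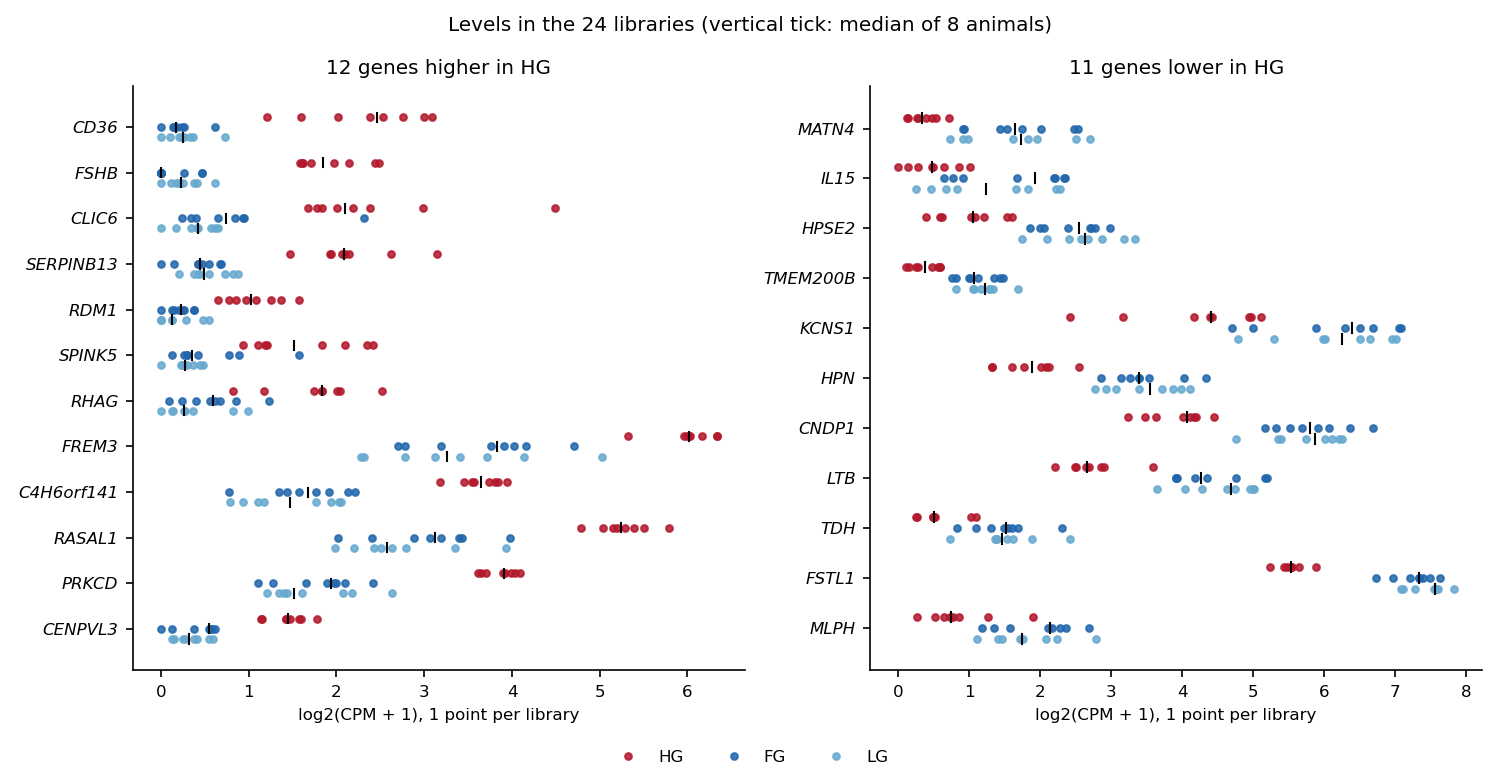
Each point is 1 library (x axis, log2 of CPM plus 1), for 12 genes higher and 11 lower in HG, with the largest log2 fold changes among those called and alike in 8 of 8 animals with a mean of at least 1 CPM. Vertical ticks are medians of 8 animals. The red HG points of CD36, FSHB, FREM3, RASAL1 and PRKCD lie to the right of all blue points, and those of MATN4, HPSE2, FSTL1 and CNDP1 to the left.

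Downward, MATN4, a matrilin of the extracellular matrix, had the largest difference by the same rule. It gave 0.0941 to 0.642 CPM (median 0.264) in HG. FG had 0.891 to 4.79 CPM (median 2.12) and LG had 0.662 to 5.5 CPM (median 2.32), and no HG library reached an FG or LG library (log2FC -3.03 ± 0.26 SE, FDR = 1.04e-06). FSTL1, a secreted follistatin-like glycoprotein, gave 36.6 to 57.9 CPM (median 45.4) in HG. FG had 105 to 198 CPM (median 161) and LG had 135 to 227 CPM (median 188), with a wide gap between the groups and the smallest FDR of the comparison (log2FC -1.86 ± 0.08 SE, FDR = 1.01e-08). HPSE2, a heparan sulfate binding protein (log2FC -2.18 ± 0.17 SE, FDR = 4.23e-07), was also lower in HG in every library. KCNS1, a subunit that modifies Kv2 potassium channels, gave 4.34 to 33.4 CPM (median 20.2) in HG. FG had 25 to 135 CPM (median 83.5) and LG had 26.7 to 128 CPM (median 76.5). HG was lower in each animal (log2FC -2.03 ± 0.12 SE, FDR = 3.53e-08), while the groups of libraries overlapped. IL15, a cytokine (-2.27), and TMEM200B, a membrane protein (-2.09), were lower by more than 2 on the log2 scale as well.

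The remaining genes of this group were LTB, lymphotoxin beta, HPN, the serine protease hepsin, CNDP1, which cleaves carnosine, TDH and MLPH. LTB was 3.63 to 11 CPM (median 5.33) in HG and at least 11.5 CPM in FG and LG (log2FC -1.94 ± 0.13 SE, FDR = 1.20e-07), without overlap. CNDP1 was 8.43 to 20.8 CPM (median 15.7) in HG and at least 26 CPM in FG and LG (log2FC -1.94 ± 0.14 SE, FDR = 1.66e-07), and HPN was separate as well (-1.96). HPN had its highest means in the globus pallidus (49.5 CPM) and the corpus callosum (47.9 CPM), and CNDP1 in the ventral tegmental area (505 CPM) and the globus pallidus (452 CPM). The corpus callosum and the globus pallidus are rich in myelinated fibres. The summed level of 7 matched oligodendrocyte markers was 1264 to 2546 CPM in HG, 2474 to 6019 CPM in FG and 2542 to 5183 CPM in LG. Its part in these results was not tested.

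Set beside all 51 sub-regions, several of the genes that were lower in HG had an occipital peak. MATN4, HPSE2, IL15 and FSTL1 all had their highest means in the posterior superior, anterior superior or inferior occipital gyrus (pSOG, aSOG, IOG), with FSTL1 at 357 CPM and MATN4 at 15.3 CPM in pSOG. Among the 32 cortical sub-regions, PA included, FSTL1 ranked 7 in FG, 6 in LG and 22 in HG, and MATN4 31 in HG. Of the genes that were higher in HG, CD36, FSHB, SERPINB13, RASAL1 and RDM1 had AMY among their highest 3 means, and FREM3 was highest in TPG (119 CPM) and the ventromedial prefrontal cortex (109 CPM). HG ranked 6 to 16 of the 32 cortical sub-regions in these 12 genes, and the mean in PA was above that in HG for CD36, FSHB, SERPINB13, RDM1, RASAL1, PRKCD and CENPVL3. These ranks are a description, and neighbours in them were not tested against each other.

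**Figure D4:**
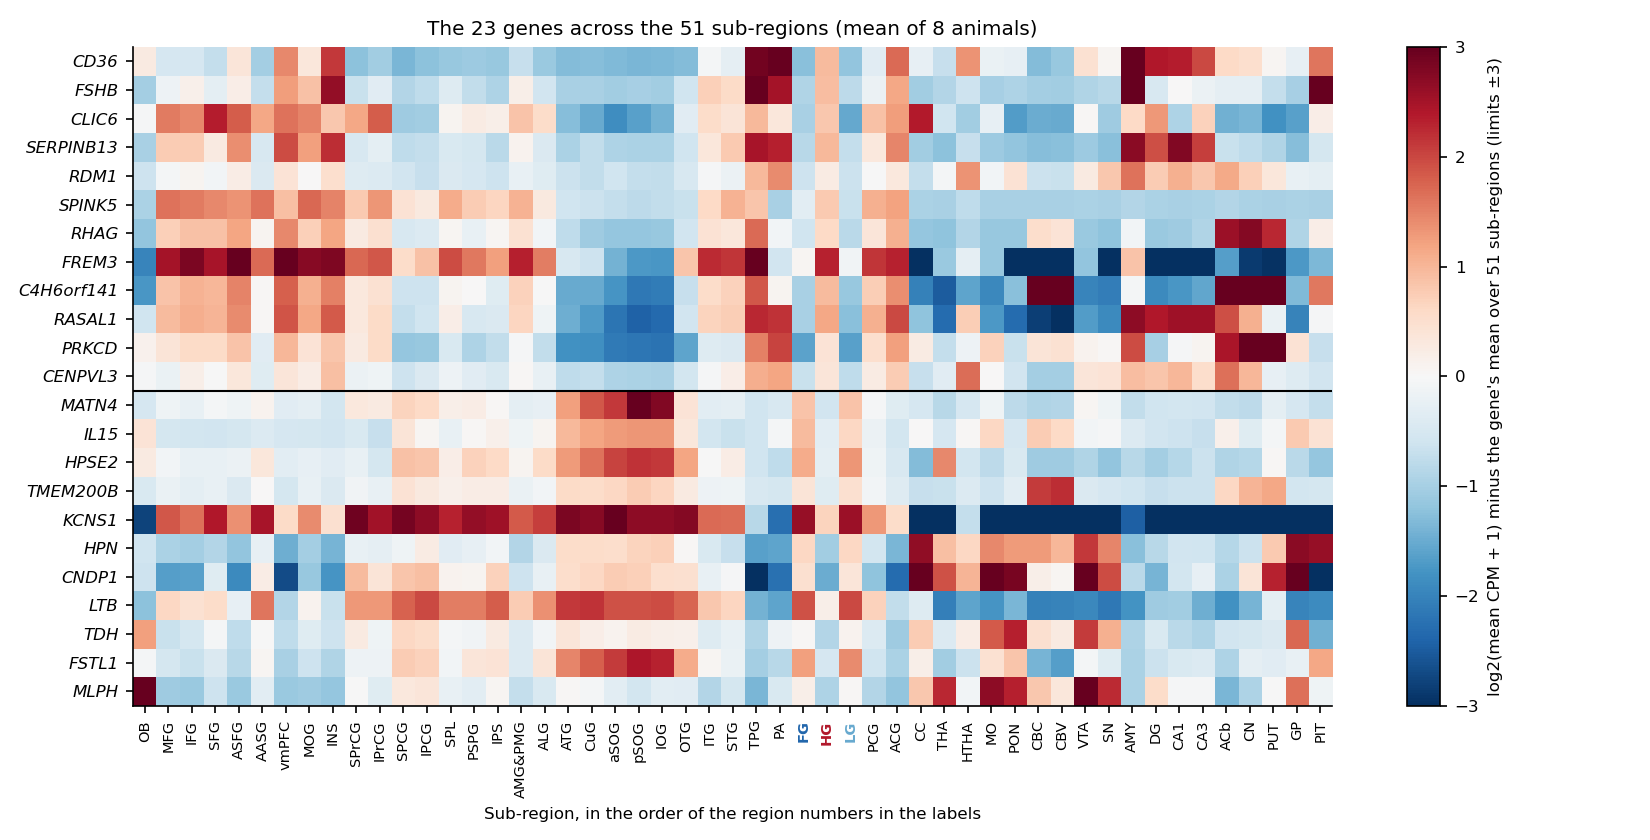
Rows are the 23 genes of the plot of levels by library, columns the 51 sub-regions in label order, and colour is log2(mean CPM of 8 animals + 1) minus the gene's mean over the 51, cut at 3 on either side. In the upper 12 rows HG ranks 6 to 16 of the 32 cortical columns and FG and LG rank 22 to 30, and MATN4, IL15, HPSE2 and FSTL1 are highest in the occipital columns.

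Genes known for a high level in the primary visual area of primates were lower in HG in 7 of 7 tested members, with a median log2FC of -0.848, where 16.3% of all genes were called lower. The paper had already reported PVALB, FSTL1 and OSTN as top hub genes of an occipital module from the cortical samples of this series. The list was chosen with such results known, so its count is a description and not independent support. After FSTL1 came PVALB, parvalbumin, with 11.5 to 28.5 CPM (median 18.1) in HG. FG had 39.8 to 99.7 CPM (median 61.5) and LG had 42.4 to 88.6 CPM (median 64.2). Every HG library was below every FG and LG library (log2FC -1.68 ± 0.12 SE, FDR = 1.31e-07). OSTN, the secreted peptide osteocrin, was 1.6 to 3.79 CPM (median 2.43) in HG, 2.85 to 7.38 CPM (median 6) in FG and 3.04 to 15.4 CPM (median 6.23) in LG (log2FC -1.3 ± 0.16 SE, FDR = 2.39e-05), far under the 68.7 CPM of pSOG. The serotonin receptors HTR1B (log2FC -0.85 ± 0.18 SE, FDR = 0.002) and HTR2A (log2FC -0.24 ± 0.06 SE, FDR = 0.00539) and the proteoglycan SPOCK2 (log2FC -0.17 ± 0.04 SE, FDR = 0.00257) were lower by less. SPOCK1 (log2FC -0.22, FDR = 0.0336) lost its call without any 1 of Rhesus 6, 7, 8, 10 and 11 (FDR of 0.0548 to 0.0873). The 3 genes listed for association areas went the other way, 3 of 3 higher. RBP4, which carries retinol, ran from 36.5 to 67.1 CPM in HG and reached 22.8 CPM in FG and LG (log2FC 1.89 ± 0.13 SE, FDR = 1.61e-07). PNMA5, of the paraneoplastic antigen family, gave 26.1 to 66 CPM (median 45) in HG. FG had 8.86 to 23 CPM (median 16.3) and LG had 11.3 to 21 CPM (median 15.7), with log2FC 1.5 ± 0.11 SE, FDR = 2.14e-07. Neither gene overlapped between HG and the others. SLIT1, an axon guidance ligand, was higher in 8 of 8 animals (log2FC 1.4 ± 0.13 SE, FDR = 1.39e-06).

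Genes of fast-firing neurons and neurofilaments were lower in 11 of 13 tested members and higher in 0 (median log2FC -0.568, where 16.3% of all genes were lower). KCNC1, the Kv3.1 channel that permits high firing rates, gave 59.7 to 101 CPM (median 78.1) in HG. FG had 121 to 199 CPM (median 168) and LG had 106 to 187 CPM (median 169), and the groups were apart (log2FC -0.99 ± 0.07 SE, FDR = 1.64e-07). The heavy neurofilament chain NEFH was 63.6 to 101 CPM (median 79) in HG and at least 114 CPM in FG and LG (log2FC -0.96 ± 0.08 SE, FDR = 8.43e-07). The medium chain NEFM was separate as well (log2FC -0.55 ± 0.06 SE, FDR = 1.31e-05), while the light chain NEFL was lower by less (-0.2, FDR = 0.00313). SCN1A, the sodium channel of parvalbumin neurons (-0.88), SYT2, their calcium sensor of release (-1.2), CPLX1 (-0.48) and KCNAB3 (-0.39) were lower too on the log2 scale. KCNC2 (0.03, FDR = 0.724) and SCN8A (0.2, FDR = 0.317) did not pass. The summed level of the list was 2691 to 3365 CPM in HG and 3888 to 5483 CPM in FG and 3904 to 4657 CPM in LG, without overlap, and without the 3 animals 11 members were lower and 1 was higher.

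**Figure D5:**
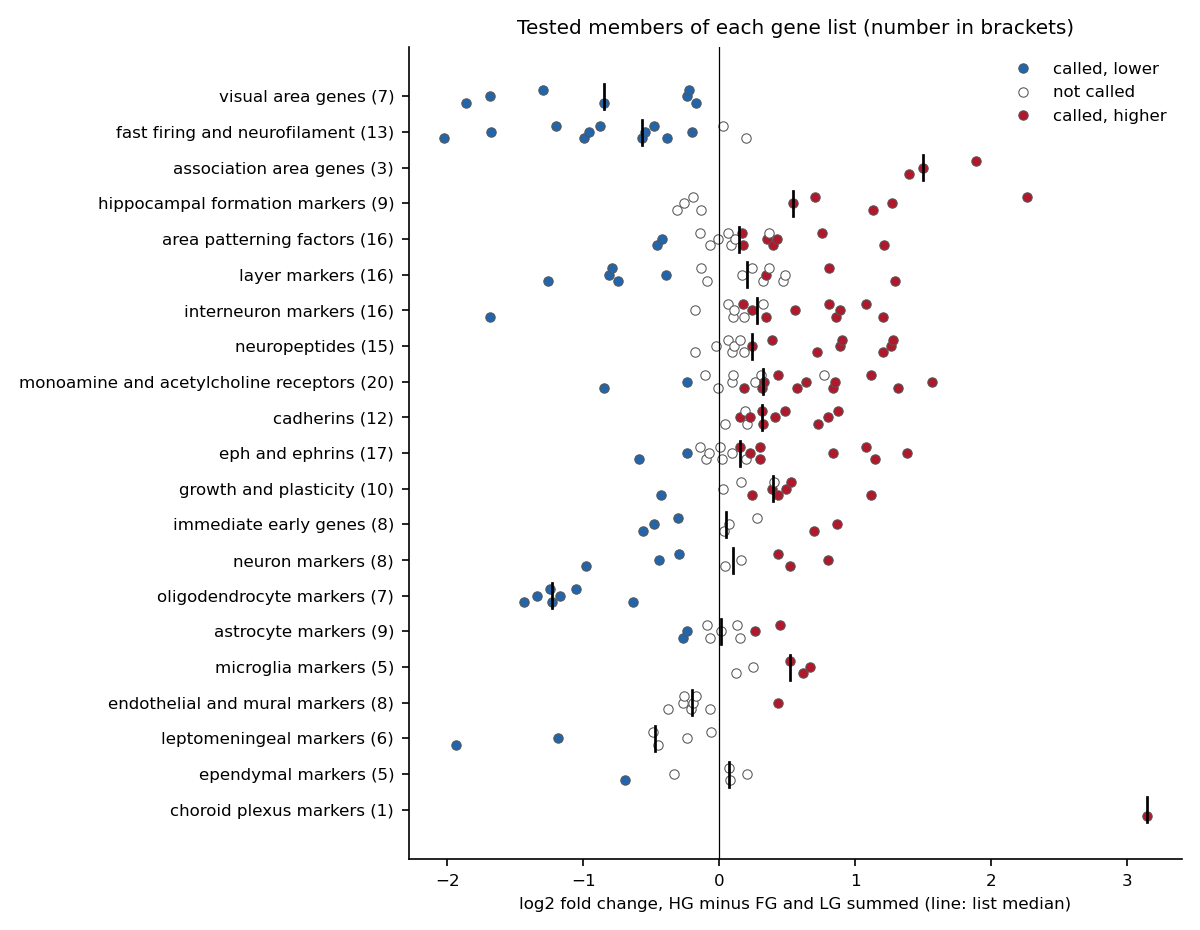
Each point is a tested member of a gene list (y axis, number tested in brackets) at its log2 fold change of HG against FG and LG summed (x axis), filled where it passed FDR < 0.05, with a line at the list median. The medians of the visual area, fast-firing and oligodendrocyte lists lie left of 0, at -0.848, -0.568 and -1.23, and that of the association area genes lies at 1.5.

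PVALB was the one interneuron marker that was lower. Of 16 tested, 9 were higher in HG, 1 was lower and 6 did not pass (median log2FC 0.282), where 18.5% of all genes were higher and 16.3% lower. NPY, neuropeptide Y, gave 11.4 to 50.9 CPM (median 27) in HG. FG had 6.94 to 17.9 CPM (median 13.1) and LG had 4.92 to 30.5 CPM (median 10.9), with log2FC 1.21 ± 0.11 SE, FDR = 1.32e-06. SST, somatostatin, gave 86 to 238 CPM (median 141) in HG. FG had 51.7 to 148 CPM (median 72.1) and LG had 53 to 131 CPM (median 80.0), with log2FC 0.89 ± 0.06 SE, FDR = 5.24e-08. For both genes the groups of libraries overlapped, while HG was higher within 8 of 8 animals. CNR1, the cannabinoid receptor (log2FC 1.08 ± 0.17 SE, FDR = 2.51e-04), CALB2, calretinin (log2FC 0.86 ± 0.13 SE, FDR = 1.25e-04), LAMP5 (log2FC 0.81 ± 0.09 SE, FDR = 6.48e-06) and ADARB2 (log2FC 0.56 ± 0.12 SE, FDR = 0.00218) were higher as well. GAD1, the GABA-synthesizing enzyme, differed by 0.17 (FDR = 0.0163) and lost its call without Rhesus 3 or 6 (FDR of 0.0608 and 0.0578) and without the 3 animals (0.176), while GAD2 (0.1, FDR = 0.172), SLC32A1 (0.11, FDR = 0.344) and VIP (0.06, FDR = 0.476) did not pass. Among 15 tested neuropeptides 8 were higher and 0 lower, on the same background. SST, NPY and CCK are among the higher genes of both lists, so the 2 counts are not separate. CARTPT, the precursor of CART peptide, gave 9.7 to 49.6 CPM (median 16.1) in HG. FG had 1.93 to 11.3 CPM (median 5.7) and LG had 4.12 to 12.9 CPM (median 9.56), with log2FC 1.28 ± 0.15 SE, FDR = 1.37e-05. GRP, gastrin-releasing peptide, was higher by 1.26 on the log2 scale (FDR = 6.19e-04). PDYN, prodynorphin, was 106 to 179.9 CPM (median 122) in HG and at most 97.5 CPM in FG and LG (log2FC 0.72 ± 0.08 SE, FDR = 9.83e-06). Of 32 cortical sub-regions, PA included, HG was at rank 2 for the means of PDYN and NPY, after PA (166 and 31.7 CPM against 133 and 30.4 CPM). TRH (log2FC 0.91, FDR = 0.0109) lost its call without Rhesus 6 (0.1), and CCK (log2FC 0.24, FDR = 0.0342) without any 1 of Rhesus 2, 3, 4, 6 and 11 (0.0711 to 0.109).

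Of the genes of excitatory neurons, SLC17A7, the vesicular glutamate transporter VGLUT1 of cortical neurons, was 783 to 1221 CPM (median 955) in HG. FG had 557 to 767 CPM (median 638). Against FG and LG summed, SLC17A7 was higher in HG (log2FC 0.52 ± 0.06 SE, FDR = 1.40e-05). SLC17A6, VGLUT2, gave 38 to 72 CPM (median 60.3) in HG. FG had 73.4 to 179.6 CPM (median 96.6) and LG had 75 to 159 CPM (median 129). Every HG library was below the rest (log2FC -0.98 ± 0.11 SE, FDR = 1.40e-05). The thalamus had the highest mean of this gene (827 CPM). SNAP25, of the vesicle fusion machinery, was lower (log2FC -0.44 ± 0.06 SE, FDR = 5.75e-05) and NEUROD6, a factor of pyramidal neurons, higher (log2FC 0.8 ± 0.16 SE, FDR = 0.00121). Of 8 listed neuron markers 3 were higher, 3 lower (RBFOX3, SNAP25 and SLC17A6) and 2 did not pass, against 18.5% and 16.3% of all genes. MAP2, of dendrites, was among the higher ones (log2FC 0.44, FDR = 0.0274) and lost its call without any 1 of Rhesus 2, 3, 4, 6, 7 and 11 (0.0532 to 0.0849). The summed level of the 8 markers overlapped between the groups, at a median of 11380 CPM in HG, 12180 CPM in FG and 12910 CPM in LG. Within animals it was lower in HG than the mean of FG and LG in 7 of 8 and higher in 1.

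Of 16 layer markers 3 were higher, 5 lower and 8 not called, against 18.5% of all genes higher and 16.3% lower, so that the higher count was at the background. RORB gave 9.96 to 51.3 CPM (median 28.6) in HG. FG had 14.5 to 83.5 CPM (median 60.2) and LG had 17.2 to 89.7 CPM (median 40.8). HG was lower in each animal, with overlapping groups (log2FC -0.81 ± 0.08 SE, FDR = 5.11e-06). FOXP2 (log2FC -0.79 ± 0.10 SE, FDR = 4.52e-05) and PCP4 (log2FC -0.75 ± 0.11 SE, FDR = 1.34e-04), both of deep layers, and CUX1 (log2FC -0.39 ± 0.07 SE, FDR = 4.08e-04) were lower too. VAT1L, of large deep-layer neurons, was 21.2 to 40.9 CPM (median 30.2) in HG and at most 19.9 CPM in FG and LG (log2FC 1.29 ± 0.13 SE, FDR = 3.99e-06). THEMIS (log2FC -1.26, FDR = 0.0258) lost its call without any 1 of Rhesus 3, 4, 7 and 10 (0.0565 to 0.0635) and without the 3 animals (0.2), and CUX2 (log2FC 0.35, FDR = 0.0335) without any 1 of Rhesus 2, 3, 4, 7 and 10 (0.0728 to 0.0986). BCL11B (0.32, FDR = 0.0765) and FEZF2 (0.37, FDR = 0.274) did not pass. Of 16 factors that pattern cortical areas 7 were higher and 2 lower, on the same background. NR2F2 (COUP-TFII), a nuclear receptor of caudal and ventral forebrain, gave 42.6 to 72.9 CPM (median 47) in HG. FG had 13.8 to 38.2 CPM (median 28.7) and LG had 22 to 41.4 CPM (median 30.8) without overlap (log2FC 0.76 ± 0.10 SE, FDR = 3.05e-05), and TSHZ2 was higher by 1.21 (FDR = 6.00e-04). LHX2 (0.4) and ZBTB18 (0.35) were higher by less, TSHZ3 (-0.46) and TBR1 (-0.42) were lower, and NR2F1 (COUP-TFI) differed by 0.17 (FDR = 0.00753). SP8 (log2FC 0.43, FDR = 0.0361) lost its call without any 1 of Rhesus 4, 6, 7 and 10 (0.0804 to 0.11). PAX6 (-0.07, FDR = 0.357) did not pass.

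Of 20 tested receptors for monoamines and acetylcholine 11 were higher in HG, 2 lower and 7 not called (median log2FC 0.32), against 18.5% higher and 16.3% lower of all genes. HTR1A, the inhibitory serotonin receptor of limbic areas, gave 3.46 to 12.6 CPM (median 9.56) in HG. FG had 1.01 to 5.13 CPM (median 4.13) and LG had 1.05 to 4.21 CPM (median 2.53). HG was higher in 7 of 8 animals, with overlapping groups (log2FC 1.57 ± 0.21 SE, FDR = 5.15e-05). HTR1E was 5.55 to 10.2 CPM (median 7.72) in HG and at most 5.54 CPM in FG and LG (log2FC 1.12 ± 0.13 SE, FDR = 1.63e-05). The adrenergic receptor ADRA2C (log2FC 1.32 ± 0.16 SE, FDR = 2.67e-05), HTR4 (0.84) and HTR3A (0.85) followed. CHRNB2, a subunit of the main nicotinic receptor, gave 119 to 177 CPM (median 141) in HG. FG had 84.9 to 108 CPM (median 95.2) and LG had 82.7 to 110.0 CPM (median 101) without overlap (log2FC 0.57 ± 0.06 SE, FDR = 3.79e-06), and its partner CHRNA4 was higher by 0.64 (FDR = 3.15e-04). The receptors that were lower were HTR1B and HTR2A, given above with the visual area genes.

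Adhesion and guidance molecules were next. Of 12 cadherins, which hold like cells together, 9 were higher and 0 lower (median log2FC 0.317, where 18.5% of all genes were higher). CDH9 gave 43.6 to 58.8 CPM (median 54.4) in HG. FG had 27.2 to 39.4 CPM (median 30.8) and LG had 21.4 to 43.1 CPM (median 32.5) without overlap (log2FC 0.73 ± 0.07 SE, FDR = 3.11e-06), and CDH13 (log2FC 0.87 ± 0.10 SE, FDR = 1.63e-05) and CDH4 (log2FC 0.8 ± 0.12 SE, FDR = 9.17e-05) were higher in 8 of 8 animals. Of 17 Eph receptors and ephrins 8 were higher and 2 lower (16.3% of all genes were lower). EFNB3, a membrane-bound ligand, gave 69.3 to 104 CPM (median 84) in HG. FG had 26.1 to 47.7 CPM (median 32.9) and LG had 24.4 to 44.5 CPM (median 28.2), also without overlap (log2FC 1.39 ± 0.08 SE, FDR = 3.27e-08). The receptor EPHA6 was 9.54 to 22.2 CPM (median 18.6) in HG and 5.56 to 13.8 CPM (median 7.57) in LG. Against FG and LG summed, EPHA6 was higher in HG (log2FC 1.14 ± 0.14 SE, FDR = 1.72e-05). EFNA1 (log2FC -0.59 ± 0.11 SE, FDR = 7.34e-04) and EPHB6 (log2FC -0.24 ± 0.06 SE, FDR = 0.00807) were lower. EPHA5 (log2FC 0.16, FDR = 0.0191) lost its call without any 1 of Rhesus 2, 3, 6 and 11 (0.0515 to 0.0608) and without the 3 animals (0.0914).

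Of 10 tested genes of growth and plasticity 6 were higher, 1 lower and 3 not called (median log2FC 0.395), where 18.5% of all genes were higher and 16.3% lower. MARCKS, a protein of growth cones and synapses, gave 178 to 269.5 CPM (median 207) in HG. FG had 99.5 to 192 CPM (median 172) and LG had 109 to 210.2 CPM (median 139.9), with overlapping groups (log2FC 0.49 ± 0.06 SE, FDR = 1.08e-05). BDNF, a neurotrophin (log2FC 0.53 ± 0.08 SE, FDR = 8.53e-05), and the growth cone protein GAP43 (log2FC 0.43 ± 0.05 SE, FDR = 2.77e-05) were, like MARCKS, higher in 8 of 8 animals, and their groups overlapped too. PPP3CA, the catalytic subunit of calcineurin, was lower (log2FC -0.43 ± 0.04 SE, FDR = 4.75e-06). Immediate early genes, which follow recent activity and also handling of the animal, did not move together, with 2 higher and 3 lower of 8 tested. Of these, NR4A3 (log2FC 0.87 ± 0.09 SE, FDR = 5.19e-06) and NPAS4 (log2FC 0.7 ± 0.14 SE, FDR = 0.00158) were higher and ARC (log2FC -0.56 ± 0.10 SE, FDR = 7.68e-04), FOS (log2FC -0.48 ± 0.11 SE, FDR = 0.00415) and NR4A1 (log2FC -0.3 ± 0.10 SE, FDR = 0.0272) lower. NR4A1 lost its call without Rhesus 4, 7 or 11 (0.0538 to 0.0629). FOS ranged from 19.4 to 154 CPM within HG.

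Markers of glia and other cells are read against the same 18.5% of all genes higher and 16.3% lower. Oligodendrocyte markers were lower in 7 of 7 tested (median log2FC -1.23, with MAG, CLDN11, OPALIN and ASPA not matched to the table). MBP, myelin basic protein, gave 698 to 1593 CPM (median 779) in HG. FG had 1228 to 3048 CPM (median 2446) and LG had 1351 to 3087 CPM (median 2362), with Rhesus 8 highest in HG and 8 of 8 animals lower (log2FC -1.44 ± 0.13 SE, FDR = 1.78e-06). MOBP, another myelin protein, was 11 to 20.2 CPM (median 13.5) in HG and at least 20.7 CPM in FG and LG (log2FC -1.17 ± 0.12 SE, FDR = 6.78e-06). In the corpus callosum, which is white matter, MBP averaged 55038 CPM. Microglia markers were higher in 3 of 5 tested, CSF1R (log2FC 0.67 ± 0.08 SE, FDR = 2.89e-05), P2RY12 (log2FC 0.62 ± 0.10 SE, FDR = 3.23e-04) and C1QC (log2FC 0.52 ± 0.11 SE, FDR = 0.00224), with a summed level of 72.2 to 99.4 CPM in HG and 45.4 to 76.7 CPM in FG and LG. Only 5 of the 10 listed microglia markers were matched to the table, without AIF1, CX3CR1, TMEM119, C1QA and C1QB. Astrocyte markers were 2 higher, 2 lower and 5 not called of 9, with AQP4, a water channel, at 0.27 (FDR = 0.00237) and GLUL, glutamine synthetase, at -0.27 (FDR = 0.00954), and GFAP (log2FC 0.45, FDR = 0.0413) lost its call without any 1 of Rhesus 2, 3, 4, 6, 10 and 11 (0.076 to 0.135). Of 8 endothelial and mural markers 1 was higher, CSPG4 (0.44, FDR = 0.00264), a share under that of all genes, and 0 were lower (median log2FC -0.199), while without TMM factors 5 were lower.

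The leptomeningeal collagens COL1A1 (log2FC -1.94 ± 0.50 SE, FDR = 0.00716) and COL1A2 (log2FC -1.19 ± 0.43 SE, FDR = 0.0464) were lower, 2 of 6 tested members, with uneven levels. COL1A1 reached 4.93 CPM in FG and 5.2 CPM in LG over medians of 0.466 and 0.9. Without the 3 animals neither passed (FDR = 0.146 and 0.398), and COL1A2 also lost its call without any 1 of Rhesus 2, 4, 6, 7, 8 and 11 (0.0673 to 0.148). FOXJ1, the 1 called of 5 ependymal markers, lost its call without any 1 of Rhesus 2, 3, 6, 10 and 11 (0.051 to 0.0737) and without the 3 animals (0.113). Red cell markers were near 0, at most 0.306 CPM in any of the 24 libraries. The part of these cell types in the other results was not tested.

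The size of the difference between HG and the other gyri was compared between young (3.2 to 5 years) and mid-aged animals (9.8 to 10 years) and between females and males, 4 animals against 4 in each case. For age stage 0 of 15237 genes passed by the quasi-likelihood test, with 701 (4.6%) at an unadjusted p under 0.05 and a smallest FDR of 0.652, and DESeq2 called 0 with 439 at an unadjusted p under 0.05. For sex 0 passed, with 154 (1.01%) at an unadjusted p under 0.05, and DESeq2 called 0 with 44. At this size the test recovered 86 of 100 genes with a simulated 4-fold interaction with age stage and 40 of 100 with a 2-fold one, so that most 2-fold differences would not have been found.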

How the data were processed

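Strand-specific RNA-seq of HG, FG and LG from 8 animals was analysed as deposited gene counts, 1 column per animal and sub-region. The authors trimmed samples of poor read quality with Trim Galore 0.4.4, aligned reads with HISAT2 2.0.5 to the rhesus genome and counted reads per gene with HTSeq 0.6.1, without pooling animals. Their strand and overlap options are not given in the sources used here, so values of genes that overlap, lie antisense to each other or have near-identical copies are uncertain. The table held 30807 genes, 17572 of them with a symbol, and 209 of 255 listed symbols matched. No sequences or coordinates are given, because the available annotation is of another assembly.

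HG was tested against FG and LG summed, per animal, with edgeR 4.0.16 (R 4.3.3): filterByExpr, TMM factors, animal as block, the quasi-likelihood F-test, and p-values adjusted after Benjamini and Hochberg (FDR) over all genes tested, called at 0.05. HG, FG and LG were also fitted singly, and the interactions with age stage and sex were tested. Replicates were separate animals by the label number, and same-numbered libraries deviated together (r of 0.545 to 0.801), so the block was kept. Named genes were the 12 per direction with the largest log2FC among called genes with a symbol, 1 direction in 8 animals and at least 1 CPM, the 5 per direction most different from both gyri, and the members of gene lists. Values of a few of these genes are not reported here. The comparison and the lists were chosen with earlier results of these data known. Single values were tested by exact permutation over animals, two-sided. Simulated counts with 200 changed genes checked each fit, and the main comparison recovered 86 of 100 changed 2-fold and 98 of 100 changed 4-fold, with 11 other calls among 15237 genes. Alternatives were DESeq2 1.42.0, other scalings, filters, references and blocks, and leaving out each animal.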

Additional observations from a re-analysis of the deposited data

Results flagged for a closer look

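Outliers were sought in 158 groups of 8 values, 1 per animal. These were levels of named genes and list sums in HG, FG or LG, and within-animal differences of named genes and of distances. The highest or the lowest value had a gap to the nearest other beyond Dixon's 95% limit in 6 cases. Chance gives about 1 in 20 groups. CD36 was 0.539 CPM in FG of Rhesus 10 and 0 to 0.201 CPM in the other FG libraries. CLIC6 was 21.5 CPM in HG of Rhesus 7, against 2.2 to 6.91 CPM in the other HG libraries, and 3.96 CPM in FG of the same animal, against 0.179 to 0.924 CPM. The summed choroid plexus markers, which include CLIC6, were 22.9 CPM in HG of Rhesus 7 and 2.62 to 7.63 CPM in the others. FREM3 was 38.9 CPM in HG of Rhesus 8, one of the libraries that stood apart, and 61.2 to 79.8 CPM in the others. The summed oligodendrocyte markers were 2540 CPM in LG of Rhesus 11 and 3800 to 5180 CPM in the others.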

How the results depend on the processing

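Without the animal as a block, 1940 genes were called between HG and the summed gyri, 1591 between HG and FG, 1760 between HG and LG and 0 between FG and LG (37 at an unadjusted p under 0.05). All 1940 were among the 5314 called with the pairing. With a limit of 2-fold the counts were 439, 372 and 422, by construction. FG alone as the reference gave 2989 genes and LG alone 5844, and the cause was not tested. Leaving out 1 animal gave 4240 (Rhesus 2) to 6193 (Rhesus 8) genes for the summed comparison, 3368 to 4791 against FG and 3518 to 4781 against LG, and kept 79% to 96.2% of the 5314 calls. DESeq2 called 4921 genes, DESeq2 size factors in edgeR gave 5333, the looser detection filter 5533, scaling by library totals alone 5652, the mean of both coefficients of the 24-library fit 5361, and leaving out FG of Rhesus 6, which the study's quality sheet lists with the lowest RNA integrity of the 24, gave 5432. The detection filter also moved the balance, to 2639 higher and 2894 lower. None of the 5314 genes changed sign in any of the 18 settings. Of 122 named genes with a call, 86 kept it in every setting and 36 lost it in at least 1, and 0 reversed. The distance from HG to PA minus the mean of those to FG and LG was 0.00625 on the scale of 1 minus Spearman's rho (p = 0.0547, exact permutation), and 0.0545 to 0.0792 with 1 animal left out. Without the animals of the 3 libraries that stood apart, an alternative chosen after seeing the data in which 5 animals cannot give a p under 0.0625, it was 0.0753, FG to LG minus the mean of the distances from HG was -0.12, and HG to FG minus HG to LG reversed to -0.00437 (p = 0.688, exact permutation). Under the other alternatives the last of these and FG to LG kept their side of the threshold, as did the 0 calls of age stage and sex. At these depths genes near 1 CPM rest on few counts, as CD36 does in FG (16 counts over 8 libraries).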

Other observations

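The families below were chosen after the values were seen and carry no test of their own. Not every family that was counted is described. Among those left out, semaphorins were 5 higher and 3 lower of 18 and collagens 7 higher and 9 lower of 37. Proteasome subunits were 1 higher and 2 lower of 32, and non-clustered protocadherins 5 higher and 0 lower of 10. Their counts are to be read against 18.5% of all genes higher and 16.3% lower. Of 18 tested subunits of ionotropic glutamate receptors, which carry fast excitation, 14 were higher in HG than in FG and LG, 0 were lower and 4 did not pass (median log2FC 0.488, against -0.00202 over all genes). GRIN2B (log2FC 1.18 ± 0.21 SE, FDR = 5.49e-04), an NMDA receptor subunit, averaged 8.88 CPM in HG and 4.03 CPM in FG and LG. The AMPA receptor subunit GRIA1 (log2FC 1.07 ± 0.08 SE, FDR = 4.08e-07) and GRIN3A (log2FC 0.92 ± 0.08 SE, FDR = 9.57e-07) followed. Of 7 metabotropic glutamate receptors 6 were higher and 0 lower, among them GRM5 (log2FC 0.89 ± 0.14 SE, FDR = 1.71e-04). The subunits of GABA-A receptors were divided, 6 of 13 higher and 2 lower. GABRA3 (log2FC 1.42 ± 0.09 SE, FDR = 5.92e-08) and GABRA5 (log2FC 1.02 ± 0.10 SE, FDR = 4.43e-06) were the highest by log2FC, and GABRE (log2FC -0.84 ± 0.12 SE, FDR = 1.03e-04) and GABRD (-0.16) were lower.

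Of 58 potassium channel subunits 13 were higher, a share near that of all genes, and 16 lower, with KCNG1 (log2FC 1.78 ± 0.10 SE, FDR = 3.27e-08) at one end and KCNS1 (-2.03) at the other, both of which are silent subunits that modify Kv2 channels. Of 22 calcium channel subunits 10 were higher and 2 lower, led by the T-type channel CACNA1H (log2FC 1.32 ± 0.13 SE, FDR = 2.30e-06). Synaptotagmins, sensors of calcium in vesicle release, were 7 higher and 3 lower of 15, with SYT17 (log2FC 2.16 ± 0.12 SE, FDR = 3.27e-08) and SYT10 (log2FC 1.91 ± 0.22 SE, FDR = 1.16e-05) higher and SYT2 (-1.2) lower. Of 9 protein kinase C genes 4 were higher and 1 was lower, with PRKCD (2.48) the highest by log2FC. Of 16 regulators of G protein signalling 5 were higher and 0 lower, led by RGS14 (log2FC 1.62 ± 0.09 SE, FDR = 3.27e-08), a gene known from CA2 neurons of the hippocampus. Of 2 tested hyaluronan and proteoglycan link proteins 0 were higher, 1 was lower and 1 did not pass. The lower one was HAPLN4 (-1.5, FDR = 4.64e-07), of perineuronal nets around fast-spiking cells.

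Genes of energy supply and protein synthesis had small median differences. Of 22 complex I subunits 4 were lower, near the 16.3% of all genes, and 0 higher (median log2FC -0.115), of 7 cytochrome c oxidase subunits 3 were lower and 0 higher (median log2FC -0.183), and of 11 ATP synthase subunits 3 were lower and 0 higher (median log2FC -0.134). Of 60 cytosolic ribosomal proteins 4 were higher, 9 lower and 47 not called, and their near-identical copies make single values uncertain. Ribosomal RNA depletion was used for all libraries alike.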
